A study of Mus musculus with 47 samples.

Results

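The comparison described here sets intestinal mucosa of Min mice against mucosa of wild-type mice in the 3 backgrounds that carry PWD chromosomes. Min is an allele of Apc that gives mice intestinal adenomas. The members were chosen by their labels as the 9 Min and the 9 wild-type libraries of these backgrounds, 18 of the 47 RNA-seq libraries of a study whose title names modifiers of intestinal cancer. Each background has 3 Min libraries and 3 wild-type libraries. In C5F1 Min and C5F1 wild-type mice, C57BL/6 was crossed to a consomic strain that has the PWD chromosome 5 on C57BL/6. C5 Min and C5 wild-type mice are of that consomic strain itself. B6xPWD Min and B6xPWD wild-type mice are from the cross of C57BL/6 with PWD. All were 15 to 19 weeks old, and the tissue is labelled as normal mucosa in both genotypes, so Min mucosa is the tissue outside the adenomas. No treatment is given for any group. The labels give neither the sex of the mice nor the stretch of intestine sampled, and they do not say that replicates are separate animals. The p-values therefore weigh the spread among these libraries, which may be technical. C57BL/6 mice without PWD chromosomes (B6, 3 Min and 3 wild-type libraries) stayed outside the reported fit over the 3 backgrounds. They were used to ask where their Min effect differed, and some levels, list medians and calls in B6 are given beside the others.

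Apc is part of the complex that marks beta-catenin for destruction, and it thereby keeps Wnt target genes in check in the crypts. A Min mouse has 1 mutant copy in every cell, and adenomas form where the other copy is lost. The mucosa between adenomas is therefore tissue in a tumour-bearing animal in which most cells keep a working copy. Such mice are known to become anaemic and to have altered blood lipids as adenomas grow.

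Levels are given as TMM-normalised CPM, in which counts are divided by the library's gene counts multiplied by its TMM factor. These levels are not plain shares of a library and do not sum to a common total. Over all genes tested they summed to between 757100 and 2247000 CPM in Min and between 744800 and 1367000 CPM in wild-type libraries. The TMM factor of C5F1 Min replicate 1 was 0.4447, so its levels are higher than its shares. Gene counts per library ranged from 2726505 to 7663553, and the ribosomal precursor Rn45s took 30.3 to 72.7% of them. The library with the highest Rn45s share was C5F1 Min replicate 1, and 4 libraries were shallow, with 2726505 to 3439918 gene counts: C5F1 Min replicate 1 and replicate 1 of wild-type C5F1, C5 and B6xPWD. The 21 brush border genes of enterocytes summed to between 15610 and 30070 CPM in Min and between 14910 and 30530 CPM in wild-type libraries. These sums show that each library held enterocyte RNA, and not that it was free of other tissue. Xist, the transcript of the inactive X chromosome, had 0 to 5 counts in each library. The Y chromosome genes Ddx3y and Uty had 8.39 to 21.6 and 13.05 to 24.9 CPM, so every library had the expression pattern of male tissue. Libraries of 1 group differed in genes that mark the position along the gut. Gata4, which sets proximal identity in the small intestine, had 36.3, 55.9 and 54.2 CPM in C5F1 Min against 5.97, 5.71 and 12.5 CPM in C5F1 wild-type libraries. It had 52.9, 2.05 and 69.4 CPM in C5 Min against 67.6, 36.0 and 0.414 CPM in C5 wild-type libraries. In B6xPWD it had 0.576, 28.01 and 40.2 CPM in Min against 33.2, 0.887 and 0.829 CPM in wild-type libraries. Gata4 thus separated Min from wild type in C5F1, whereas in C5 and B6xPWD it was high in some libraries of both genotypes. Fabp6, a bile acid binding protein of the distal ileum, had 753, 999 and 972 CPM in C5F1 Min against 3939, 2727 and 2168 CPM in C5F1 wild-type libraries, which did not overlap. Its levels overlapped between the genotypes of C5 and of B6xPWD.

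**Figure D1:**
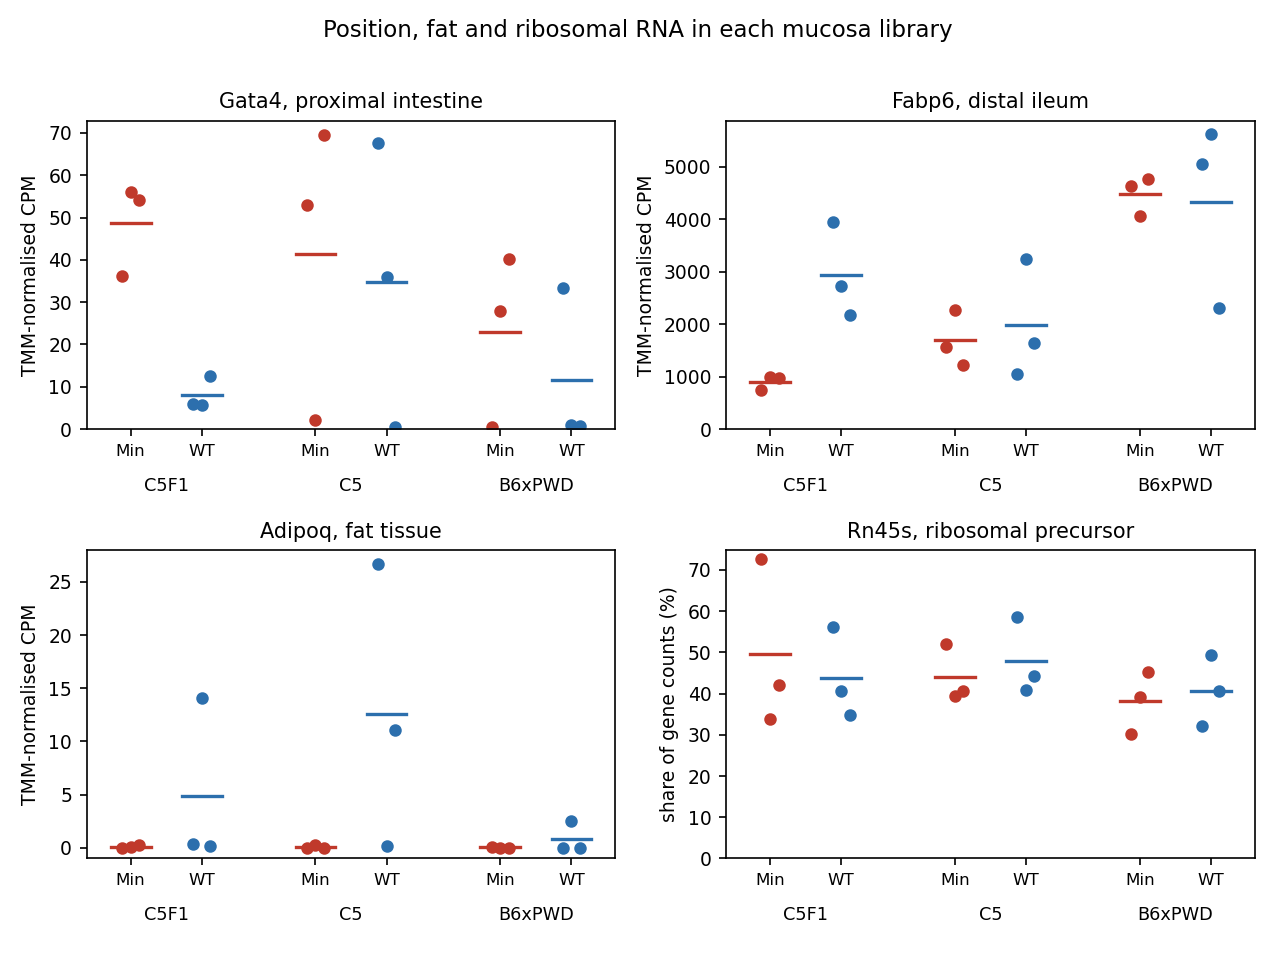
Each point is 1 library, with Min (red) left of wild type (WT, blue) in each background and a line at the group mean; the axes show TMM-normalised CPM of Gata4, Fabp6 and Adipoq and the percentage of gene counts in Rn45s. Gata4 and Fabp6 separated the genotypes in C5F1 only, Adipoq reached 26.7 CPM in a C5 wild-type library, and Rn45s reached 72.7% in C5F1 Min replicate 1.

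No gene differed between Min and wild-type mucosa across the 3 backgrounds at a Benjamini-Hochberg adjusted p under 0.05. That is 0 of 12873 genes tested, or 0%, by edgeR's quasi-likelihood test with background as a block. At an unadjusted p under 0.05 there were 586 genes with higher levels in Min (4.55% of those tested) and 650 with lower levels (5.05%). On the same counts, DESeq2 gave an adjusted p for 10549 genes after its own filter. It called 36 of them, 12 higher in Min, so the count of 0 depends on the test and its filter. Of the genes described below, these include Abca1, Il33, Col14a1, Osmr, Mmp13, Loxl2, Kdr, Mpeg1, Itgax, Cd93 and Klhl24 with higher levels in Min, and Mvd, Mvk, Acat2, Lss, Cyp51, Selm, Cldn4, Cdo1, Tst, Cltb, Adipoq and Car3 with lower levels. The differences below are therefore values and not changes that passed the test, and a p above the threshold does not show that levels were equal. A log2 difference is always Min over wild type, fitted with background as a block unless 1 background is named. Its error is an SE worked back from the test's F statistic, so it adds nothing to the difference and its p. Means carry the SD over 9 libraries a genotype. Of all genes, 31.7% had the same sign in the 3 backgrounds, 15.3% with higher and 16.4% with lower levels in Min, and 49.1% had a log2 difference above 0 over the 3 together. Where a gene is said below not to overlap in a background, all 3 Min libraries lay on 1 side of all 3 wild-type libraries. That held with Min higher for 6.22% of genes in C5F1, 8.42% in C5 and 4.31% in B6xPWD, and with Min lower for 6.1%, 7.78% and 4.36% in the same order. Because this is bulk tissue, fewer cells of a type and less RNA per cell cannot be told apart.

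Apc itself, on chromosome 18, averaged 138 ± 17.0 CPM in Min and 123 ± 26.7 CPM in wild-type libraries (log2 difference 0.17 ± 0.11, adjusted p = 0.645). The Min allele is a point mutation, so the transcript level does not check the genotype labels.

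**Figure D2:**
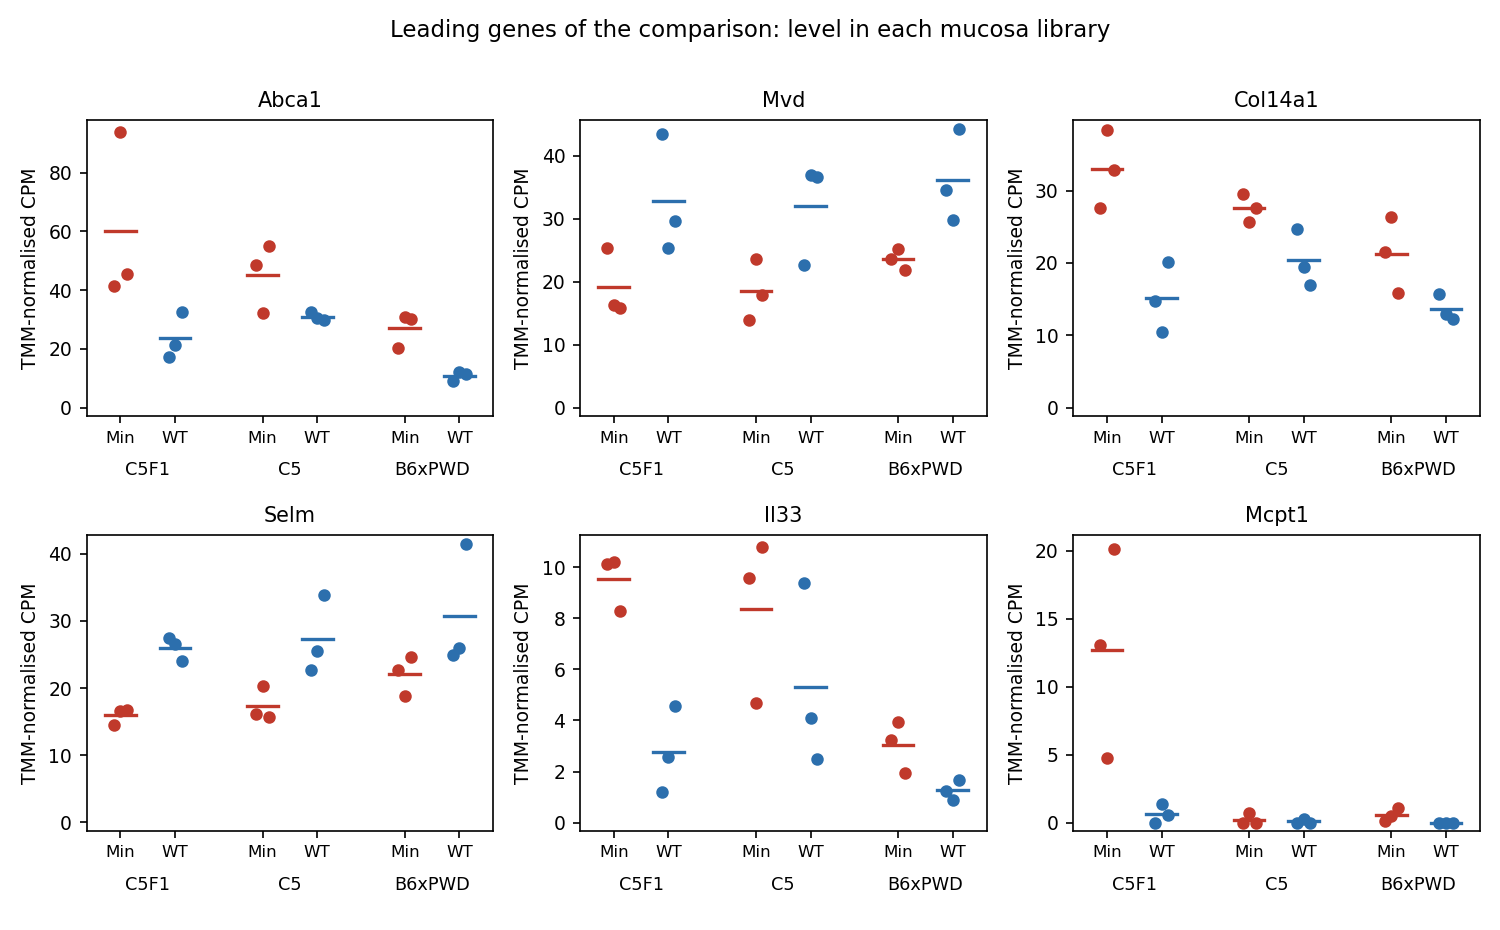
Each point is the TMM-normalised CPM of a gene in 1 library, with Min (red) left of wild type (WT, blue) in each background and a line at the group mean. Col14a1 and Selm separated the genotypes in each of the 3 backgrounds, Mcpt1 stood above 4 CPM in the C5F1 Min libraries only, and Abca1 overlapped in C5 through 1 Min library at 32.2 CPM.

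All 20 cholesterol synthesis enzymes tested had a fitted log2 difference below 0. These enzymes turn acetyl-CoA into mevalonate, isoprenoid units, squalene, lanosterol and at last cholesterol, and their genes are known targets of the transcription factor SREBP2, which is active when a cell is short of sterol. The median over the enzymes was -0.57, against -0.00449 over all genes tested. None passed the adjusted threshold of edgeR's test, while DESeq2 called 5 (Acat2, Cyp51, Lss, Mvd and Mvk). By edgeR, 15 of the 20 had lower levels in Min at an unadjusted p under 0.05, and 17 had the same sign in the 3 backgrounds. The list was drawn up after values of Mvd and Mvk had been seen. The median was -0.805 in C5F1, -0.45 in C5 and -0.517 in B6xPWD, and the enzymes' summed level ran from 976 to 1843 CPM in Min (median 1337) and from 1273 to 2370 CPM in wild-type libraries (median 1837). The summed ranges overlapped. With the Gata4 level as a covariate, added because position markers split with genotype in C5F1, the median over the enzymes was -0.447.

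The promoters of 4 enzymes, picked after their values had been seen, are shown. Mvd had the smallest p among the enzymes, and the others stand at the entry (Hmgcs1) and the start of the sterol part (Lss, Cyp51) of the pathway. SREBP factors are known to act at such promoters together with NF-Y, whose box reads CCAAT. The sequences are from RefSeq on GRCm38.p6, from 250 bases before to 50 bases after the start of the gene, 5′ to 3′ on the gene's strand. Mvd lies at chr8:122443373-122443672 on the minus strand, Lss at chr10:76531355-76531654 on the plus strand, Cyp51 at chr5:4104648-4104947 on the minus strand and Hmgcs1 at chr13:119690101-119690400 on the plus strand. Capitals mark CCAAT or its reverse complement ATTGG and, in Hmgcs1, the letters TCACCCCAC, which fit the sterol regulatory element core TCACNCCAC.
Mvd: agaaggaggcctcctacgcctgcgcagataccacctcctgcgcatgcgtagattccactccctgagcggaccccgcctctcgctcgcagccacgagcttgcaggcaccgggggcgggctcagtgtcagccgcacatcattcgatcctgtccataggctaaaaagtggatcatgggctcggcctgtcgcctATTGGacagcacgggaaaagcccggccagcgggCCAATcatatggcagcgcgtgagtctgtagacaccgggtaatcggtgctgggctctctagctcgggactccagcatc
Lss: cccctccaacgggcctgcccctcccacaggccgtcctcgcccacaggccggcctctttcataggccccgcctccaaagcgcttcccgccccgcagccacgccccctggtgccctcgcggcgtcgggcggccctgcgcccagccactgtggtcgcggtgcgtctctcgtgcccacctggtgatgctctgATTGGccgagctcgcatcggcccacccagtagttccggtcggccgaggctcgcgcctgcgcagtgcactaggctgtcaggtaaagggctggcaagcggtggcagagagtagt
Cyp51: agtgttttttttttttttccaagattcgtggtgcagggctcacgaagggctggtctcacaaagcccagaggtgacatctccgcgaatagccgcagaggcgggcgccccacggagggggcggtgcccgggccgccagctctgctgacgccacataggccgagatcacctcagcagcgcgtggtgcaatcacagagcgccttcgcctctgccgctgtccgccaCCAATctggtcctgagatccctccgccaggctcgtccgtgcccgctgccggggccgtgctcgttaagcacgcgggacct
Hmgcs1: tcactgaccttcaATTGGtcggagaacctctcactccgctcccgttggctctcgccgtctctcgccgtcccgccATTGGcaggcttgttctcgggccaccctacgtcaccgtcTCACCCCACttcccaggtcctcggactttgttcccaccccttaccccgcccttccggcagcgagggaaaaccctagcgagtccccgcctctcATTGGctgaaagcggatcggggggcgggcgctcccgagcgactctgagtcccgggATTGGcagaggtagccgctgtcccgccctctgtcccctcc
Counted from the start of the gene, CCAAT lay at -60 and -27 in Mvd, -62 in Lss, -29 in Cyp51, and -237, -176, -45 and 11 in Hmgcs1. On either strand CCAAT was found in the window of 14 of the 15 enzymes that RefSeq windows could be matched to, and in 41.1% of the 27025 genes with a window. TCACNCCAC was found in 1 of these 15, Hmgcs1, at -137, and in 1.44% of all genes. A match is a description of the letters, not a bound site or a cause, and no match says only that these letters are not in this window.

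The enzymes of the first steps lead to mevalonate. Acat2, which joins acetyl-CoA units, averaged 9.82 ± 2.41 CPM in Min and 14.2 ± 2.80 CPM in wild-type libraries (log2 difference -0.55 ± 0.14). Hmgcs1, which makes HMG-CoA, had 216, 113 and 106 CPM in C5F1 Min against 379, 219 and 252 CPM in C5F1 wild-type libraries. In C5 it had 137, 271 and 123 CPM in Min against 176, 241 and 247 CPM in wild type. In B6xPWD, Min libraries had 259, 143 and 137 CPM and wild-type libraries 203, 263 and 324 CPM. Every C5F1 Min library was thus below every C5F1 wild-type library, while 1 Min library of each other background lay within or above the wild-type range (log2 difference over the backgrounds -0.62 ± 0.20, adjusted p = 0.329).

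The enzymes that turn mevalonate into isoprenoid units included the member with the smallest p. Mvd, mevalonate diphosphate decarboxylase, had 25.4, 16.2 and 15.7 CPM in C5F1 Min against 43.4, 25.3 and 29.6 CPM in C5F1 wild-type libraries. It had 13.9, 23.6 and 17.9 CPM in C5 Min against 22.7, 36.9 and 36.5 CPM in C5 wild-type libraries, and 23.6, 25.2 and 21.8 CPM in B6xPWD Min against 34.5, 29.8 and 44.1 CPM in B6xPWD wild-type libraries. Only 1 Min library of C5F1 and 1 of C5 reached into the wild-type range of its own background. Mvd averaged 20.4 ± 4.45 CPM in Min and 33.6 ± 7.46 CPM in wild-type libraries (log2 difference -0.74 ± 0.14, adjusted p = 0.0736), and it passed the threshold without C5 wild-type replicate 1. Mvk, mevalonate kinase, averaged 12.4 ± 2.43 CPM in Min and 20.04 ± 4.84 CPM in wild-type libraries (-0.67 ± 0.15, adjusted p = 0.204). Pmvk, the next kinase, had a log2 difference of -0.60 ± 0.15, and Idi1, the isomerase, -0.55 ± 0.21.

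Farnesyl diphosphate and squalene come next. Fdps, which makes farnesyl diphosphate, had a log2 difference of -0.65 ± 0.18, and Fdft1, which makes squalene, had -0.79 ± 0.22. Sqle, squalene epoxidase, averaged 122 ± 40.2 CPM in Min and 183 ± 44.5 CPM in wild-type libraries (-0.59 ± 0.18). Lss closes the rings to lanosterol. It had 30.5, 8.11 and 9.79 CPM in C5F1 Min against 26.3, 14.0 and 18.2 CPM in C5F1 wild-type libraries, and 10.2, 15.3 and 8.88 CPM in C5 Min against 22.7, 29.8 and 18.5 CPM in C5 wild-type libraries. In B6xPWD it had 9.22, 10.6 and 7.57 CPM in Min against 20.9, 13.5 and 30.5 CPM in wild type. The genotypes did not overlap in C5 and B6xPWD, whereas C5F1 Min replicate 1, the library with the highest Rn45s share, was above all C5F1 wild-type libraries. The log2 difference of Lss was -0.92 ± 0.23 (adjusted p = 0.240), and Lss passed the threshold when C5F1 Min replicate 1 was left out.

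Of the enzymes that turn lanosterol into cholesterol, Cyp51, the sterol demethylase, averaged 134 ± 42.3 CPM in Min and 206 ± 41.4 CPM in wild-type libraries (log2 difference -0.64 ± 0.16, adjusted p = 0.257). Its gene lies on chromosome 5, which is PWD in both genotypes of C5. Its log2 difference was -1.05 in C5F1, -0.39 in C5 and -0.48 in B6xPWD. Msmo1, Nsdhl and Hsd17b7, which act together at carbon 4 of the ring, had log2 differences of -0.65 ± 0.21, -0.51 ± 0.16 and -0.51 ± 0.17. The smallest differences were those of Tm7sf2 (-0.34 ± 0.17), Ebp (-0.18 ± 0.09), Dhcr7 (-0.20 ± 0.15) and Sc5d (-0.08 ± 0.11), each with an unadjusted p above 0.05.

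**Figure D3:**
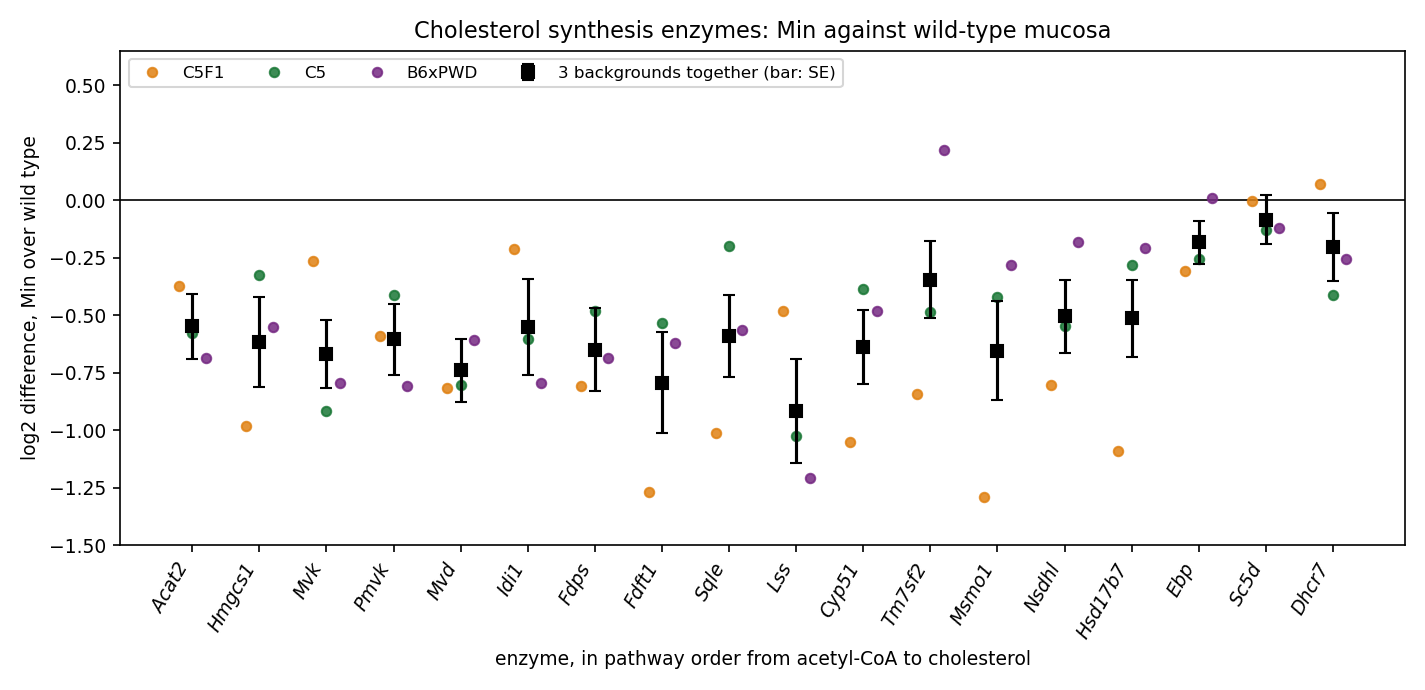
The horizontal axis lists 18 of the 20 enzymes in pathway order and the vertical axis gives the log2 difference of Min over wild type; black squares are the 3 backgrounds together with SE bars and coloured points are C5F1, C5 and B6xPWD. All 18 squares lie below 0, from -0.08 for Sc5d to -0.92 for Lss, and the C5F1 points are the lowest of the 3 backgrounds for Hmgcs1, Fdft1, Sqle, Cyp51 and Msmo1, among others.

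Genes that bring sterol in or sense it were mixed. Of 11 such genes, 4 had lower levels in Min at an unadjusted p under 0.05 and none had higher levels, with a median of -0.18 (this list was also drawn up after values had been seen). Insig1, which holds SREBP back when sterol is ample, had a log2 difference of -0.73 ± 0.21, and Srebf2, which encodes SREBP2, had -0.38 ± 0.16. Both are known SREBP2 targets, and both had log2 differences below 0 in each of the 3 backgrounds.

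Abca1, which exports cholesterol to apolipoprotein A-I and is a known target of the sterol sensor LXR, had the opposite sign and was among the 3 genes with the smallest p, all higher in Min. It had 41.3, 93.8 and 45.4 CPM in C5F1 Min against 17.1, 21.5 and 32.5 CPM in C5F1 wild-type libraries. In C5 it had 48.7, 32.2 and 55.1 CPM in Min against 32.6, 30.7 and 29.8 CPM in wild type, and in B6xPWD 20.4, 30.8 and 30.3 CPM in Min against 8.93, 12.1 and 11.4 CPM in wild type. The genotypes did not overlap in C5F1 and B6xPWD, and in C5 only 1 Min library lay inside the wild-type range. The mean was 44.2 ± 21.5 CPM in Min and 21.8 ± 9.78 CPM in wild-type libraries (log2 difference 1.05 ± 0.18, adjusted p = 0.0579). Abca1 passed the threshold without C5 Min replicate 2 or without C5 wild-type replicate 1, and with Gata4 as a covariate its log2 difference was 0.88 (adjusted p = 0.192). Abcg5 and Abcg8, which together return sterols to the gut lumen, had log2 differences of 0.26 ± 0.12 and 0.20 ± 0.11. Of the 8 genes of sterol efflux listed, 7 lay above 0, with a median of 0.16, and Abca1 alone was under an unadjusted p of 0.05.

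The counts of mast cell proteases came mostly from C5F1 Min mucosa. Mcpt1 and Mcpt2 are chymases of mucosal mast cells and known markers of type 2 responses in the gut. Mcpt1 had 13.1, 4.78 and 20.1 CPM in C5F1 Min against 0, 1.34 and 0.595 CPM in C5F1 wild-type libraries. In C5 it had 0, 0.683 and 0 CPM in Min against 0, 0.302 and 0 CPM in wild type, and in B6xPWD 0.115, 0.494 and 1.08 CPM in Min against 0 CPM in each wild-type library. In all, 252 counts in Min libraries stood against 19 in wild-type libraries, most of them in C5F1, and the C5 libraries of both genotypes were near 0. The log2 difference was 2.6 ± 0.45 (adjusted p = 0.0579). Mcpt2 had 84 counts in Min and 5 in wild-type libraries (2.03 ± 0.35, adjusted p = 0.0579). The genes are close copies, so reads may be split between them. Only 3 of 12 mast cell genes passed the filter on low counts, so most markers of the cell type gave no test. The third, Kit, a receptor that interstitial cells of Cajal also carry, averaged 41.6 ± 9.69 CPM in Min and 43.0 ± 6.09 CPM in wild-type libraries (-0.05 ± 0.10). In B6, Mcpt1 had 0.251, 0.546 and 48.0 CPM in Min against 4.20, 4.77 and 2.27 CPM in wild-type libraries, so 1 B6 Min library was above every C5F1 Min library. Both proteases passed the threshold without C5F1 Min replicate 2, without C5 Min replicate 1, without C5 wild-type replicate 1 and without B6xPWD Min replicate 1, and Mcpt1 also without C5 wild-type replicate 2.

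Il33, an alarm cytokine of the barrier that is known to start type 2 responses, had 10.2, 10.2 and 8.27 CPM in C5F1 Min against 1.19, 2.55 and 4.56 CPM in C5F1 wild-type libraries. It had 9.60, 4.67 and 10.8 CPM in C5 Min against 9.38, 4.08 and 2.48 CPM in C5 wild-type libraries, and 3.23, 3.96 and 1.95 CPM in B6xPWD Min against 1.23, 0.887 and 1.66 CPM in B6xPWD wild-type libraries. The genotypes overlapped in C5 and were apart in C5F1 and B6xPWD. Il33 averaged 6.98 ± 3.49 CPM in Min and 3.11 ± 2.68 CPM in wild-type libraries (log2 difference 1.15 ± 0.25, adjusted p = 0.161), and it passed without C5 wild-type replicate 1. With Gata4 as a covariate its log2 difference was 0.89 (adjusted p = 0.246), the lowest under any alternative. The summed level of the genes listed for eosinophils and type 2 responses overlapped, from 81 to 149.3 CPM in Min and from 67.3 to 107 CPM in wild-type libraries. Of the 13 genes listed, only 6 passed the filter on low counts, and all 6 lay above 0, with a median of 0.43. Among them Ccr3, the eosinophil's receptor for eotaxins, averaged 1.77 ± 0.71 CPM in Min and 1.05 ± 0.79 CPM in wild-type libraries (0.73 ± 0.25). Ccl11, an eotaxin made by stromal cells, averaged 8.22 ± 2.84 CPM in Min and 5.79 ± 3.67 CPM in wild-type libraries (0.60 ± 0.25).

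Genes of blood vessels and of the matrix under the epithelium lay above 0 as groups. All 23 endothelial genes tested had log2 differences above 0 (median 0.31, with 7 at an unadjusted p under 0.05). Of these, 12 had the same sign in the 3 backgrounds. The summed level of the 27 endothelial genes listed overlapped, from 90.8 to 240.6 CPM in Min and from 64.9 to 212.7 CPM in wild-type libraries. Kdr, the main VEGF receptor of endothelium, averaged 11.95 ± 4.63 CPM in Min and 7.36 ± 3.86 CPM in wild-type libraries (log2 difference 0.80 ± 0.20, adjusted p = 0.257). Emcn, a sialomucin of capillary and venous endothelium, had 0.66 ± 0.18, and Flt1, the decoy receptor for VEGF, had 0.61 ± 0.21. All 21 collagen and basement membrane genes lay above 0 as well (median 0.37), 19 of them with the same sign in the 3 backgrounds and 10 at an unadjusted p under 0.05. Col18a1 and Col15a1, collagens of basement membranes, had 0.42 ± 0.14 and 0.57 ± 0.20, and Lama4, a laminin chain of vessels, had 0.37. The summed level of the 21 genes still overlapped, from 432 to 1368 CPM in Min (median 1103) and from 339 to 1167 CPM in wild-type libraries (median 848).

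Single matrix genes stood out more than the group. Col14a1, a collagen that sits on fibrils, had 27.6, 38.4 and 32.9 CPM in C5F1 Min against 14.7, 10.4 and 20.1 CPM in C5F1 wild-type libraries. It had 29.6, 25.6 and 27.6 CPM in C5 Min against 24.7, 19.5 and 17.0 CPM in C5 wild-type libraries, and 21.4, 26.4 and 15.8 CPM in B6xPWD Min against 15.7, 13.0 and 12.2 CPM in B6xPWD wild-type libraries. Every Min library was above every wild-type library of its own background (log2 difference 0.74 ± 0.14, adjusted p = 0.0801), and Col14a1 passed the threshold without C5 wild-type replicate 1. Separation of this kind in the 3 backgrounds at once was found for 4 genes in the direction of higher levels in Min (0.0311% of those tested: Adal, Col14a1, Osmr and Zfp109) and for 5 in the other (0.0388%: Cdo1, Cldn4, Dpep1, Gpatch3 and Selm). Zfp109, Dpep1 and Gpatch3 are named because these counts are small, after their values had been seen. Osmr, the receptor for oncostatin M on stromal cells, averaged 5.55 ± 1.87 CPM in Min and 3.15 ± 1.77 CPM in wild-type libraries (0.79 ± 0.19, adjusted p = 0.237). Mmp13, a collagenase, averaged 5.91 ± 2.13 CPM in Min and 2.66 ± 1.75 CPM in wild-type libraries, and its lowest Min library had 2.16 CPM. Of 19 matrix protease and plasminogen genes 16 lay above 0 (median 0.32, 6 at an unadjusted p under 0.05), among them Loxl2, which crosslinks collagen (0.65 ± 0.16), and Adamts4, an aggrecanase (1.04 ± 0.35).

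Other cells of the wall did not all share this direction. Of 16 fibroblast genes 15 lay above 0, with a median of 0.22, and 2 were higher at an unadjusted p under 0.05. Pdgfra, the fibroblasts' receptor for PDGF, had 0.48 ± 0.17 and Col3a1, a fibrillar collagen, 0.40 ± 0.16. Smooth muscle genes lay the other way in 10 of 12 cases, with a median of -0.10, and their summed level overlapped, from 250 to 2110 CPM in Min and from 554 to 2307 CPM in wild-type libraries. Whether the depth of the tissue sampled moved with the vessel and matrix genes was not tested beyond these values.

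Genes of macrophages and dendritic cells lay above 0 in 12 of 14 cases (median 0.41, 7 at an unadjusted p under 0.05), and 10 had the same sign in the 3 backgrounds. Their summed level overlapped, from 158.8 to 347.5 CPM in Min (median 187.6) and from 147.5 to 471.8 CPM in wild-type libraries (median 176). The highest library was B6xPWD wild-type replicate 1. Mpeg1, a pore-forming protein of macrophages, averaged 67.2 ± 20.4 CPM in Min and 43.3 ± 14.3 CPM in wild-type libraries (log2 difference 0.66 ± 0.14, adjusted p = 0.161). In C5 it had 58.9, 106 and 74.4 CPM in Min against 48.9, 47.4 and 44.4 CPM in wild type, and in B6xPWD 66.2, 48.6 and 34.0 CPM in Min against 32.9, 24.1 and 26.9 CPM in wild type, both without overlap. In C5F1 it overlapped. Itgax, the integrin CD11c, had 0.56 ± 0.15, Cybb, the NADPH oxidase subunit of phagocytes, 0.46 ± 0.14, and Mrc1, the mannose receptor, 0.49 ± 0.16. Cd93, shared by endothelium and myeloid cells, had 0.69 ± 0.16 (adjusted p = 0.237).

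Lymphocyte genes had different signs in different backgrounds. All 14 T cell genes tested lay above 0 over the 3 backgrounds (median 0.24), but none was under an unadjusted p of 0.05 and none had the same sign in each background. Their median was -0.29 in C5F1, 1.07 in C5 and -0.12 in B6xPWD. In C5 the summed T cell level was 235, 235 and 91.8 CPM in Min against 118, 53.9 and 52.1 CPM in wild-type libraries, which overlapped through the third Min library. Cd8a, a chain of the CD8 co-receptor, had 21.3, 18.6 and 7.82 CPM in C5 Min against 7.89, 3.02 and 4.83 CPM in C5 wild-type libraries. Genes of MHC class II, which present antigen to CD4 T cells, had a median of 0.72 in C5, against -0.07 in C5F1 and -0.64 in B6xPWD. Of 9 B and plasma cell genes 8 lay above 0, with medians of -0.22, 0.61 and 0.48 in the same order.

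Genes of fat tissue gave the largest log2 differences, and they rested on 4 wild-type libraries. Adipoq, the adipocyte hormone adiponectin, had 26.7 CPM in C5 wild-type replicate 1, 14.1 CPM in C5F1 wild-type replicate 2, 11.03 CPM in C5 wild-type replicate 3 and 2.49 CPM in B6xPWD wild-type replicate 2. All 9 Min libraries had at most 0.233 CPM, and the other wild-type libraries at most 0.398 CPM. The log2 difference was -3.77 ± 0.75 (adjusted p = 0.0996) for Adipoq, -4.25 ± 0.83 (adjusted p = 0.0971) for Car3, a carbonic anhydrase of fat and muscle, and -4.11 ± 0.93 (adjusted p = 0.234) for Cfd, the complement factor adipsin. Car3 and Adipoq passed the threshold without C5 wild-type replicate 2. All 14 genes tested of the fat list lay below 0, 12 at an unadjusted p under 0.05, with a median of -1.58. The median was -0.31 without those 4 libraries, which is no separate check, since they were picked by Adipoq, a member of the list. Not all members are particular to fat. In B6 Min libraries, which had at most 1.13 CPM of Adipoq, Acly had 115 to 160 CPM and Fasn 85.2 to 150 CPM. The summed level of the 8 genes listed for liver was 35.0 and 20.8 CPM in C5 wild-type replicates 1 and 3. It was 1.23 to 8.26 CPM in the other libraries of either genotype. Only 2 of the 8, Cyp2e1 and Ttr, passed the filter on low counts, and whether liver tissue was present was not tested. In B6 wild-type libraries Cyp2e1 had 18.8, 32.25 and 17.0 CPM, whereas Alb, also on the list, had 0 CPM in each. Without the 4 libraries of the 3 backgrounds with the most Adipoq the median of the cholesterol enzymes was -0.65, and Abca1 had a log2 difference of 1.10 and Col14a1 of 0.69. In B6, outside this fit, Adipoq had 1.13, 0 and 0.175 CPM in Min against 6.46, 10.96 and 5.11 CPM in wild-type libraries. The median log2 difference of the fat genes in B6 was -1.03.

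Heat shock and ER stress genes lay above 0 in 19 of 20 cases (median 0.23, 7 at an unadjusted p under 0.05), with medians of 0.16 in C5F1, 0.43 in C5 and 0.08 in B6xPWD. Hsph1, a large heat shock protein, had 45.5, 74.2 and 95.8 CPM in C5 Min against 28.6, 37.0 and 14.8 CPM in C5 wild-type libraries, without overlap, while it overlapped in C5F1 and B6xPWD (log2 difference over the backgrounds 0.73 ± 0.22, adjusted p = 0.309). Hsp90aa1, an inducible chaperone, had 0.40 ± 0.16, and Xbp1, which drives the response to unfolded protein in the ER, had 0.23 ± 0.08.

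Several further genes with small p had lower levels in Min mucosa. Selm, a selenoprotein of the ER, had 14.5, 16.6 and 16.8 CPM in C5F1 Min against 27.4, 26.5 and 24.01 CPM in C5F1 wild-type libraries. It had 16.2, 20.3 and 15.6 CPM in C5 Min against 22.7, 25.5 and 33.8 CPM in C5 wild-type libraries, and 22.7, 18.8 and 24.6 CPM in B6xPWD Min against 24.9, 25.9 and 41.5 CPM in B6xPWD wild-type libraries. Selm thus did not overlap in any of the 3 backgrounds (log2 difference -0.60 ± 0.11, adjusted p = 0.0736), and it passed the threshold without C5 wild-type replicate 1. With Gata4 as a covariate its log2 difference was -0.49 (adjusted p = 0.213). Cldn4, a claudin of tight junctions, averaged 113 ± 28.9 CPM in Min and 162 ± 43.1 CPM in wild-type libraries (-0.52 ± 0.12, adjusted p = 0.237). Cdo1, which breaks down cysteine, averaged 11.6 ± 1.84 CPM in Min and 17.7 ± 3.98 CPM in wild-type libraries (-0.58 ± 0.14). Both also separated the genotypes in each background. Tst, the mitochondrial enzyme rhodanese, had -0.83 ± 0.17 (adjusted p = 0.156) and passed the threshold without B6xPWD wild-type replicate 1. Cltb, a clathrin light chain, had -0.65 ± 0.14 (adjusted p = 0.161).

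Among the higher genes, Adal, an adenosine deaminase-like enzyme that acts on methylated AMP, had between 4.10 and 6.57 CPM in Min (median 4.78) and between 1.59 and 3.97 CPM in wild-type libraries (median 3.45). Its 9 Min libraries were all above its 9 wild-type libraries, which was true of 2 genes, Adal and Zfp109 (0.0155% of those tested), and of none in the other direction (0%). The log2 difference of Adal was 0.57 ± 0.14 (adjusted p = 0.240). Klhl24, an adaptor for ubiquitin ligases, averaged 43.2 ± 8.08 CPM in Min and 30.8 ± 7.41 CPM in wild-type libraries (0.50 ± 0.12), but it overlapped in B6xPWD, where the log2 difference was 0.11. Rdx, radixin, which links actin to the membrane, had 0.59 ± 0.14 (adjusted p = 0.237).

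The groups closest to the function of Apc had members in both directions. The 21 Wnt target genes tested had a median of 0.01 and ran from -0.74 to 0.65, with 2 higher and 4 lower at an unadjusted p under 0.05, and the 14 intestinal stem cell genes had a median of 0.03, with 2 in each direction. Ascl2, a stem cell transcription factor and Wnt target, averaged 3.15 ± 1.19 CPM in Min and 5.18 ± 1.99 CPM in wild-type libraries (log2 difference -0.74 ± 0.21, adjusted p = 0.300). Ephb3, a Wnt target that positions cells in the crypt, had -0.33 ± 0.13, and Tnfrsf19, also a Wnt target, had 0.32 ± 0.12. Of 22 cell cycle genes 18 lay below 0, with a median of -0.14 and 2 at an unadjusted p under 0.05. Rrm2, a subunit of ribonucleotide reductase, averaged 6.13 ± 1.004 CPM in Min and 7.40 ± 0.559 CPM in wild-type libraries (-0.28 ± 0.11). Medians were 0.01 for Paneth cells, -0.07 for goblet cells, -0.16 for enteroendocrine cells and 0.05 for tuft cells. Atoh1, which sets the secretory fate, averaged 13.6 ± 3.5 CPM in Min and 19.0 ± 5.91 CPM in wild-type libraries (-0.49 ± 0.16, adjusted p = 0.345).

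Genes of absorption and of gut position stood farthest from 0 in C5F1. The 18 lipid absorption genes tested all lay above 0 (median 0.27), but the median was 0.74 in C5F1, -0.23 in C5 and 0.17 in B6xPWD, and -0.06 over the 3 with Gata4 as a covariate. Mttp, which loads lipid onto chylomicrons, had a log2 difference of 0.90 in C5F1, with 0.22 in C5 and 0.27 in B6xPWD. Genes of the proximal intestine had medians of 1.14, -0.11 and 0.20 in the same order, and genes of the distal ileum -0.90, -0.23 and 0.10. Slc51b, a subunit of the basolateral bile acid exporter of the ileum, had 55.1, 49.5 and 33.4 CPM in C5F1 Min against 115, 76.8 and 64.3 CPM in C5F1 wild-type libraries. It had 54.2, 48.1 and 44.3 CPM in B6xPWD Min against 75.4, 78.8 and 58.7 CPM in B6xPWD wild-type libraries, and it overlapped in C5. The part of the sampled position in these C5F1 differences was not tested further, since Gata4 and Fabp6 split with the genotype there.

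Hypoxia genes lay on both sides of 0. Of 31 tested, 15 lay above 0 and 16 below (median -0.02), and 3 were higher at an unadjusted p under 0.05. These were P4ha1 and P4ha2, which hydroxylate proline in collagen, and Kdm3a, a histone demethylase. P4ha1 averaged 10.6 ± 3.85 CPM in Min and 6.94 ± 1.96 CPM in wild-type libraries (log2 difference 0.65 ± 0.17, adjusted p = 0.300), P4ha2 had 0.70 ± 0.25 and Kdm3a 0.27 ± 0.10. The letters ACGTG, the core of the hypoxia response element, were found on either strand in the promoter window of 21 of the 28 hypoxia genes matched, P4ha1 and P4ha2 among them and Kdm3a not, and in 21.8% of all genes with a window.

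Clock genes varied within groups. Their median was 0.03 in C5F1, -0.63 in C5 and -0.37 in B6xPWD, and 3 of 16 were lower in Min at an unadjusted p under 0.05. Per3, a period gene, had 3.58, 1.02 and 1.42 CPM in C5 Min against 5.92, 21.5 and 5.65 CPM in C5 wild-type libraries, and 1.27, 3.62 and 2.38 CPM in B6xPWD Min against 2.15, 0.887 and 23.6 CPM in B6xPWD wild-type libraries. Hlf, a clock output factor, was high in the same libraries, with 10.4 CPM in C5 wild-type replicate 2 and 13.5 CPM in B6xPWD wild-type replicate 3. The time of day of sampling is not given in the labels. The other 16 lists with at least 3 tested members had medians between -0.12 and 0.23, with 13 members higher and 10 lower at an unadjusted p under 0.05 of 191 tested.

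**Figure D4:**
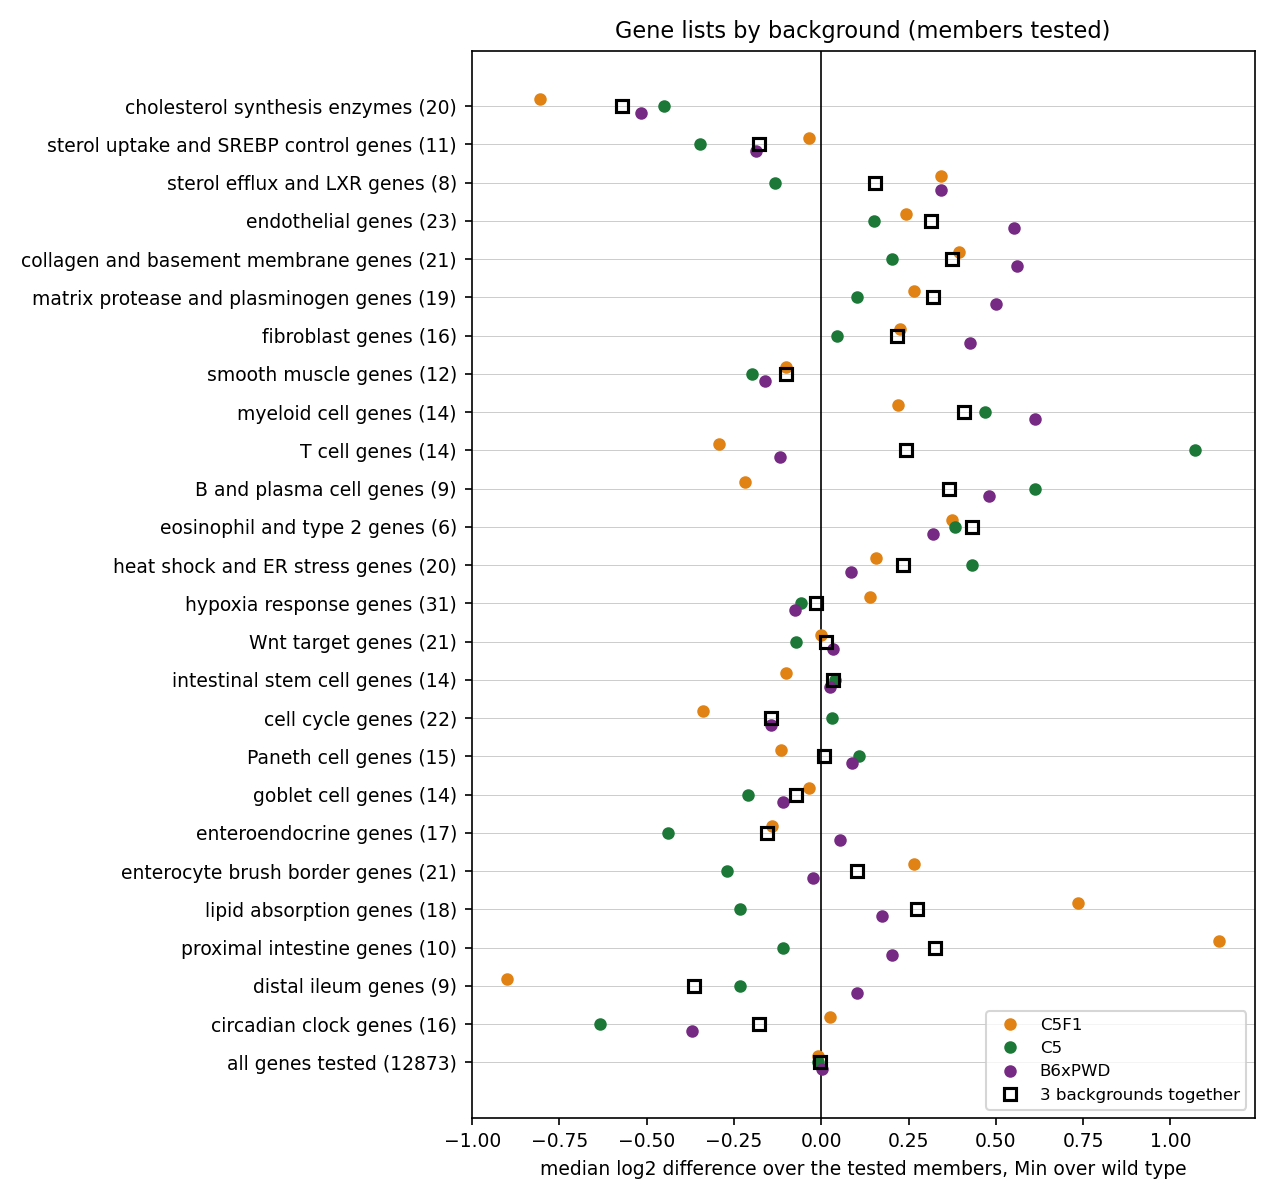
Each row is a gene list with its number of tested members, and the horizontal axis gives the median log2 difference of Min over wild type for C5F1, C5 and B6xPWD (points) and for the 3 together (squares). Cholesterol enzymes lie below 0 in each background and endothelial, collagen and myeloid genes above 0, while T cell genes reach 1.07 in C5 only and proximal intestine genes 1.14 in C5F1 only.

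Within single backgrounds no gene passed the threshold either. By edgeR's quasi-likelihood test 0 of 12873 genes (0%) were called in C5F1, 0 (0%) in C5 and 0 (0%) in B6xPWD. At an unadjusted p under 0.05 there were 834 genes in C5F1 (6.48%), 1148 in C5 (8.92%) and 560 in B6xPWD (4.35%). With a model fitted to the 6 C5F1 libraries alone, 86 of 12392 genes were called in that background, 55 of them higher in Min. The position markers Gata4, Fabp1 and Fabp6 are among the 86. DESeq2 called 16 of the 3001 genes that kept an adjusted p after its own filter. The DESeq2 calls include Fabp6, Slc51b and Slc51a, bile acid genes of the ileum, and 3 cholesterol enzymes, Cyp51, Msmo1 and Hsd17b7. The median absolute log2 difference was 0.183 in C5F1, 0.215 in C5 and 0.175 in B6xPWD. A test of the difference of the Min effect among the 3 backgrounds called 0 genes (0%), with 585 (4.54%) at an unadjusted p under 0.05. Across 12829 genes, which are not independent, the Min effects of the backgrounds had a Pearson r of 0.223 between C5 and B6xPWD, 0.115 between C5F1 and B6xPWD and 0.0893 between C5F1 and C5. Against the Min effect in B6, r was -0.286 for C5F1, -0.0492 for C5 and 0.0233 for B6xPWD.

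The Min effect differed from that in B6 for 10 of 13064 genes (0.0765%), tested as the mean effect of the 3 backgrounds minus the effect in B6. In B6 itself 28 genes (0.214%) were called between Min and wild-type mucosa. Gata4 had 0, 0.137 and 0.872 CPM in B6 Min against 1.20, 63.7 and 78.3 CPM in B6 wild-type libraries, so position markers moved with genotype in B6 in the direction opposite to C5F1. Fabp6 had 2811, 1742 and 1925 CPM in B6 Min against 1594, 279 and 36.9 CPM in B6 wild-type libraries. Plb1, a brush border phospholipase, had 3.51, 1.09 and 2.62 CPM in B6 Min against 2.40, 584 and 741 CPM in B6 wild-type libraries, the pattern of Gata4 over these 6 libraries. Its log2 difference was 2.39 in C5F1, -0.14 in C5 and 0.76 in B6xPWD, against -7.33 in B6 (difference 8.33 ± 1.56, adjusted p = 0.0440).

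Pfkl, the liver-type phosphofructokinase of glycolysis, had the smallest p of these. It had between 18.9 and 39.4 CPM in the Min libraries of the 3 backgrounds and between 20.04 and 52.9 CPM in their wild-type libraries, which overlapped. In B6 it had 138, 106 and 68.2 CPM in Min against 32.7, 34.0 and 28.4 CPM in wild-type libraries, which did not. The difference of the effects was -1.74 ± 0.26 (adjusted p = 0.0163). Aldoc, an aldolase of glycolysis, had a log2 difference of 0.10, -0.25 and -0.15 in C5F1, C5 and B6xPWD against 2.48 in B6 (difference -2.58 ± 0.47). Il33 had 1.51, 0.81 and 1.12 against -1.5 in B6 (difference 2.64 ± 0.51). Rragd, a GTPase of mTORC1 signalling, Slc5a12, a lactate transporter, Sult1b1, a sulfotransferase, Wnt4, a Wnt ligand, Gramd1b, a sterol transfer protein, and Agpat9, an acyltransferase of triglyceride synthesis, likewise had a log2 difference below 0 in B6. Their differences of the effects were 1.25 to 4.12, each with an adjusted p of the difference of 0.0440. Within B6 itself the effect did not pass the threshold for Slc5a12 (adjusted p = 0.0575), Agpat9 (adjusted p = 0.0619) and Il33 (adjusted p = 0.137). The part of the sampled position in these 10 differences was not tested. Without B6 Min replicate 1, B6 wild-type replicate 2 or B6 wild-type replicate 3 the count was 0, and without B6 wild-type replicate 1, the library with the least Gata4 of its group, it was 239. Pfkl was the 1 gene left when any of 7 libraries of the 3 backgrounds was left out: C5F1 Min replicates 2 and 3, C5F1 wild-type replicates 2 and 3, C5 Min replicates 1 and 3, and B6xPWD Min replicate 2. For the cholesterol enzymes the median was 0.40 in B6, and none of the 20 is among the 10 genes. DESeq2 and the fit with a replicate block each called the difference for Cyp51. It was called for Lss without C5F1 Min replicate 1 and for Hsd17b7 without C5 Min replicate 2. For DESeq2, with 188 calls, and other fits with many calls only part of the names was kept, so further enzymes were not checked there.

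**Figure D5:**
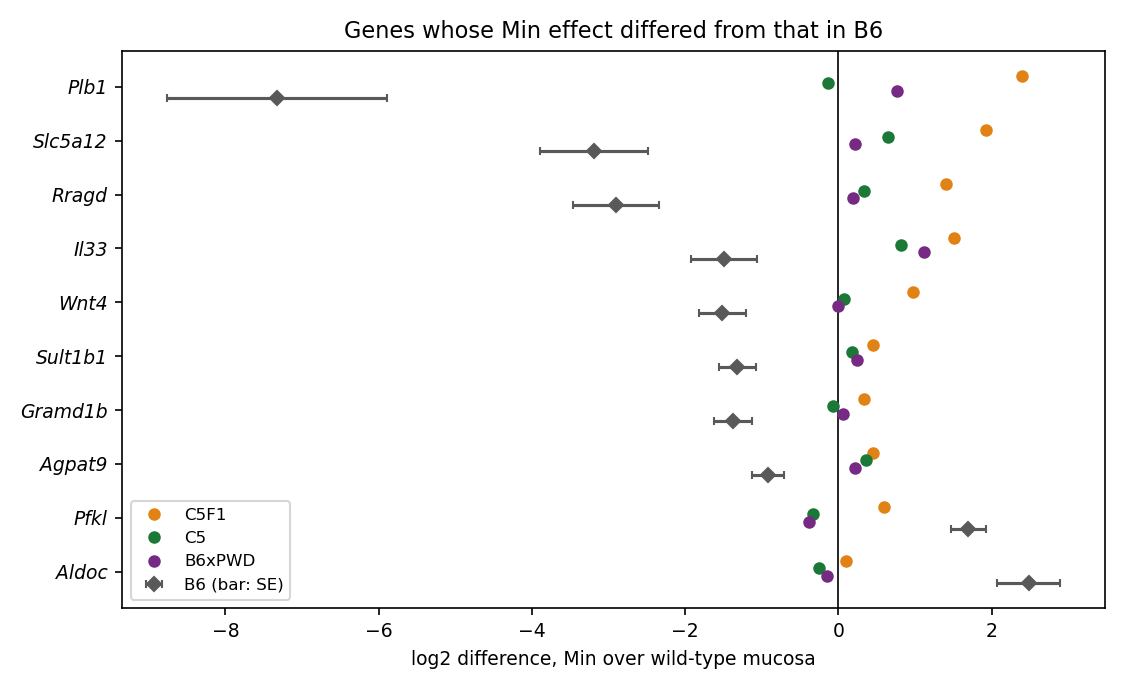
The horizontal axis gives the log2 difference of Min over wild-type mucosa and each row is 1 of the 10 genes whose effect differed from that in B6; points are C5F1, C5 and B6xPWD, and grey diamonds with SE bars are B6. The B6 effect lies below 0 for 8 genes, down to -7.33 for Plb1, and above 0 for Pfkl and Aldoc.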

How the data were processed

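Single-end libraries of RNA depleted with RiboMinus were sequenced on an Illumina Genome Analyser IIx, per the labels' protocols. The authors deposited raw read counts per gene symbol, made with BWA, HTSeq and mm10 per the submitters' processing notes. Versions, annotation and strand setting are not given in the sources used here, so reads of overlapping antisense genes cannot be told apart. The table holds 24062 symbols and 5 HTSeq summary rows. The summary rows, 40.7 to 52.7% of a library's total, were left out. Symbols were matched to RefSeq GRCm38.p6, 22549 by symbol and 1372 by synonym, and 141 had no match. No replicate was a copy of another: the chi-square of 2 libraries' counts, divided by its degrees of freedom, was at least 18.6 in each of 18 pairs.

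Low genes were removed with filterByExpr, which used the groups, a minimum count of 10 and a minimum total of 15. Counts were TMM-normalised and fitted with edgeR 4.0.16 in R 4.3.3 as background plus genotype (14 residual degrees of freedom), with the quasi-likelihood test and a Benjamini-Hochberg adjusted p under 0.05 as the threshold. Models with 1 mean per group gave the effect in each background and the differences among backgrounds and from B6. Fitted log2 values use a prior count of 2, and their SE is the absolute log2 difference divided by the square root of the F statistic. The scripts were tested on simulated data. Alternatives included DESeq2 1.42.0, other normalisations, no filter, a replicate block, each library left out in turn, and, added after the data were seen, a Gata4 covariate, edgeR's robust fit and fits without shallow or fat-containing libraries.

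The members, the gene lists and the tests were chosen with earlier results of these data known, and the 3 sterol lists after values had been seen. Named genes are up to 10 in each direction with the smallest p, the same sign in the 3 backgrounds and at least 5 CPM on the higher side, 3 per list with the smallest p, Apc and P4ha1, called genes of each difference, and the members of the cholesterol list. Some genes that meet this rule are not reported here. Genes outside this rule were named after their values had been seen. Promoter windows are from RefSeq, and motifs were searched on both strands.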

Additional observations from a re-analysis of the deposited data

Results flagged for a closer look

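For 10 genes the test of the difference itself found that the Min effect in C5F1, C5 and B6xPWD, taken as their mean, differed from that in B6 (edgeR's quasi-likelihood test, Benjamini-Hochberg adjusted p under 0.05). The difference on the log2 scale was -1.74 for Pfkl, 1.61 for Sult1b1, 3.54 for Rragd, -2.58 for Aldoc, 1.86 for Wnt4, 8.33 for Plb1, 1.48 for Gramd1b, 1.25 for Agpat9, 2.64 for Il33 and 4.12 for Slc5a12. In B6 the position markers Gata4 and Fabp6 moved with genotype, and their part in these differences was not tested. Groups of 3 are too small for a test of single outlying libraries, but when each library was left out in turn the count of 10 ran from 0 to 239.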

How the results depend on the processing

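The count of genes called over the 3 backgrounds, 0 in the reported fit, was 36 with DESeq2, 7 without the filter on low counts, 6 with edgeR's robust fit and 4 without the 4 shallow libraries (Lamb3, Mvd, Pmp22 and Tst, all lower in Min). It ran from 0 to 7 when 1 library was left out, with 7 without C5 wild-type replicate 1, 3 without C5 Min replicate 1 or C5 wild-type replicate 2, 2 without C5F1 Min replicate 2 or B6xPWD Min replicate 1, and 1 without C5F1 Min replicate 1, C5 Min replicate 2 or B6xPWD wild-type replicate 1. It was 0 with RLE normalisation, without Rn45s, with a Gata4 covariate, without the 4 libraries with the most Adipoq, without a background term and with all 39 tissue libraries. A replicate block called 2 genes, Car3 and Mvd. The labels do not say that replicate numbers pair the libraries, and correlations of same-numbered Min and wild-type libraries ran from -0.291 to 0.287. In 4 of 9 cases, the 3 of C5F1 and C5 replicate 1, the Min library correlated best with the wild-type library of its number. In C5F1 the count, 0 as reported, was 16 with DESeq2, 2 without the filter and 86 with the 6 libraries of C5F1 alone. In C5, 0 as reported, it was 3 without the shallow libraries and between 0 and 1 when 1 library was left out (1 without C5 Min replicate 2). The count of genes whose effect differed from B6, 10 as reported, was 188 with DESeq2, 90 without the filter and 40 with all 39 tissue libraries, and from 0 to 239 when 1 library was left out. It was 101 without B6xPWD wild-type replicate 1, 48 without B6 Min replicate 3, 36 without C5 Min replicate 2, 29 without C5 wild-type replicate 1, and 28 without B6xPWD Min replicate 1. It was 5 without B6 Min replicate 2, 3 without C5 wild-type replicate 3 or B6xPWD wild-type replicate 2, 2 without C5 wild-type replicate 2 or B6xPWD Min replicate 3, and 1 (Pfkl) without C5F1 Min replicate 2 or 3, C5F1 wild-type replicate 2 or 3, C5 Min replicate 1 or 3, or B6xPWD Min replicate 2. A replicate block called 9 genes, of which 3 (Aldoc, Gramd1b and Pfkl) were among the 10, edgeR's robust fit called 9, of which 7 were, and the fit without the shallow libraries called 10, of which 2 (Pfkl and Rragd) were. Of 2516 values of 84 genes under the alternatives, 2456 kept their sign and their side of the threshold, 59 passed it with the same sign, and 1 changed sign (Sc5d, 0.038 without the shallow libraries). Of 320 values of the 10 genes that differed from B6, 150 lost the call and none changed sign. Of 1380 list medians 6 moved beyond the spread between libraries: fat genes, -0.311 without the 4 libraries with the most Adipoq, and mast cell genes, 3.19 with DESeq2, 1.27 without Rn45s, 1.45 with all 39 libraries, 1.42 with the mean over backgrounds and 1.53 without C5F1 Min replicate 3. The cause of these shifts was not tested. Depth limits genes under about 1 CPM, where a library holds only a few counts.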
